A study of Mus musculus with 9 samples.

Results

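Glutamate, GABA and glycine are the fast transmitters of the brain, and the genes described here encode the subunits of their receptors. They were chosen by symbol as the AMPA (Gria), NMDA (Grin), kainate (Grik), delta (Grid) and metabotropic glutamate (Grm) receptor genes, the GABA-A (Gabr) and GABA-B (Gabbr) receptor genes and the glycine receptor genes (Glra, Glrb), which gave 52 of the 49315 genes in the count table. RNA from whole brains of male wild-type C57BL/6J mice was sequenced after polyA selection, in 5 young mice (3 months in the sample labels) and 4 old mice (33 months). No treatment or transgene was applied in either group, and each brain was extracted on its own. Between 14229259 and 21150439 reads fell on genes per library, and the spread between mice corresponded to a biological coefficient of variation of 6.71%.

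AMPA, NMDA and kainate receptors are glutamate-gated cation channels, and they excite the postsynaptic cell. GABA-A and glycine receptors are chloride channels, and they usually inhibit the mature neuron. Metabotropic glutamate and GABA-B receptors act through G proteins, and the delta receptors bind synaptic organiser proteins rather than serving as ordinary glutamate-gated channels. The subunits in a receptor set its kinetics, its drug sensitivity and its place in the membrane, and several of them mark a brain region or cell type.

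Receptor subunit transcripts were slightly less abundant in old than in young brains. Of the 48 subunit genes with enough reads to test, 10 were lower and 0 were higher in old mice by the quasi-likelihood test of edgeR, adjusted over all genes after Benjamini and Hochberg (adjusted p under 0.05). Those 10 made up 20.8% of the tested subunit genes, where 4.83% of the 18492 genes tested were lower and 6.2% were higher. The falls were small, from 9.07% to 23.4% of the young level in the genes described below, and 0 of the 48 also had an absolute log2 fold change over 0.58, a threshold that 2.68% of all tested genes passed. At an unadjusted p under 0.05, 21 subunit genes were lower and 1 was higher (45.8% of those tested, beside 26.0% of all genes), and 1 of them, Glra1, also exceeded that fold. DESeq2's Wald test called 12 of the 48 subunit genes, all lower, beside 978 lower and 1153 higher of all 18492 genes. Of the 44 subunit genes with a mean log2 CPM (counts scaled to the library size) of at least 3, 22.7% were lower and 0 were higher, beside 6.96% and 6.97% of all genes at that level.

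The direction was shared more widely than the calls. The log2 fold change was below 0 for 43 of the 48 (89.6%), beside 50.0% of all tested genes, and the median was -0.11, beside 0.00 over all genes. In 8 subunit genes every old mouse was below every young mouse, which is 16.7% of those tested beside 6.08% of all genes, and in 0 was every old mouse above, beside 6.5%. Leaving out 1 library gave counts of 8 to 13, the highest without old replicate 3. With fewer mice the ages separate more easily in any gene, and the share over all genes is not given for those fits. The tests assume that most genes did not change. When the libraries were scaled to 12 pan-neuronal markers instead, the median of the subunit genes turned from -0.11 to 0.03. That of all genes moved to 0.14. In that fit 3 of the 48 subunit genes were called, all higher, beside 4990 higher and 207 lower of all 18492 genes. The median of the subunit genes minus that of all genes lay between -0.13 and -0.10 in all 24 fits. A change of scaling moves the fold changes of all genes nearly alike, so this difference cannot test the scaling. On the authors' TPM values, where the median of all genes was -0.14, limma called 3 subunit genes, all lower (Grm4, Glra1 and Gabra6). Of the 10 calls 1 thus remained. Calls were fewer over all genes too, with 287 lower and 307 higher, beside 893 and 1146 by edgeR.

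The whole-brain samples held neuronal, glial and vascular markers at readily measured levels. Pan-neuronal markers were also lower in old brains: 11 of 12 had a log2 fold change below 0, 5 passed the test (Map2, Stmn2, Elavl4, Tubb3 and Nefm), their median was -0.13, and their summed level ranged from 7406 to 7803 CPM in young and from 7063 to 7263 CPM in old mice. This median lies close to that of the receptor genes, and the part of the neuronal markers in the receptor result was not tested. In such bulk samples fewer cells of a type and less RNA per cell cannot be told apart. Regional markers varied between libraries of 1 age as well as between ages, and their values stand beside the subunits that moved with them.

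**Figure D1:**
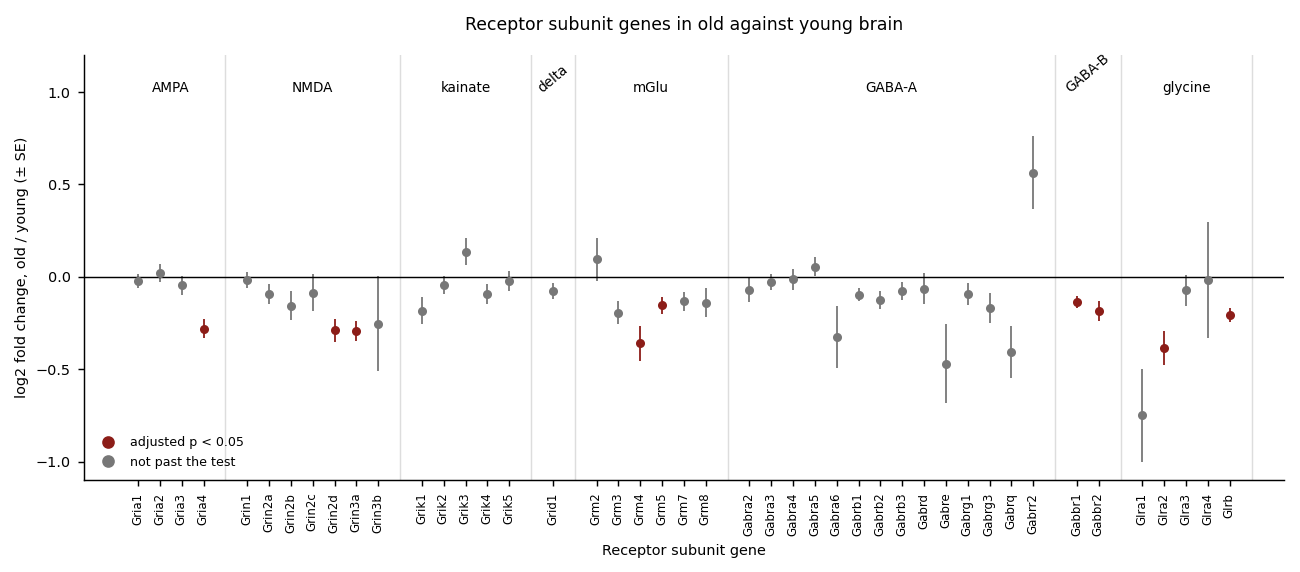
Log2 fold change (old over young, with its standard error) of 44 of the 48 tested receptor subunit genes, grouped by receptor class. The 9 plotted genes past the test lie below 0, between -0.14 and -0.39. Scaling to pan-neuronal markers in place of TMM moves the median of all 48 from -0.11 to 0.03.

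Among the AMPA receptor genes, which encode the channels of fast excitation, 1 of 4 fell. Gria4 encodes GluA4, a subunit with rapid kinetics that is abundant in cerebellar cells and in parvalbumin interneurons. Its level was 188.3, 162.6, 194.8, 167.2 and 185.9 CPM in young replicates 1 to 5 and 147.2, 143.2, 152.2 and 148.2 CPM in old replicates 1, 3, 4 and 5. Every old mouse was below every young mouse, and the old mice lay close together. Gria4 thus had a log2 fold change of -0.28 (SE 0.052, adjusted p = 0.0038 by edgeR), a fall of 17.8%. Gria4 stayed past the threshold when any single library was left out, with an adjusted p of at most 0.013.

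The other AMPA subunit genes did not pass the test. Gria1, encoding GluA1 and the most abundant AMPA transcript per length, ran from 431.8 to 457.0 CPM in young and from 410.7 to 455.1 CPM in old mice (log2 fold change -0.02, SE 0.037, edgeR adjusted p = 0.75), and its sign turned without old replicate 4. Gria2, whose product makes the channel nearly impermeable to calcium, had a log2 fold change of 0.02 (SE 0.049), and Gria3 one of -0.05 (SE 0.051). On the per-length scale of TPM, which divides counts by gene length, Gria4 made up 17.4% ± 1.37 (SD, n = 5) of the AMPA transcripts in young and 14.9% ± 0.88 (SD, n = 4) in old mice. These shares overlapped, since young replicate 2 (15.9%) lay below old replicate 4 (16.2%). Gria1 made up 44.8% ± 0.71 and 45.8% ± 0.55.

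Glycine receptor genes held 2 of the 10 calls, of 5 tested. Glrb encodes the beta subunit, which binds gephyrin and anchors the receptor at the synapse. Its level was 230.5, 217.3, 228.8, 225.9 and 235.6 CPM in young and 185.3, 201.0, 206.4 and 196.9 CPM in old mice. The ages were separated by a gap, with a log2 fold change of -0.21 (SE 0.039, edgeR adjusted p = 0.0044), a fall of 13.3%. Glra2, an alpha subunit prominent in the immature brain, had 15.4, 15.2, 14.3, 13.0 and 15.1 CPM in young and 11.4, 12.1, 12.1 and 9.2 CPM in old mice. The ages did not overlap here either, and old replicate 5 was lowest. For Glra2 the log2 fold change was -0.39 (SE 0.090, edgeR adjusted p = 0.014), a fall of 23.4%.

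Glra1, the main alpha subunit of adult brain stem and spinal cord, had the lowest fold change of all subunit genes but did not pass the test. It passed in 5 of 23 alternative fits, among them limma on TPM and edgeR without a filter on low counts. It had 21.3, 18.9, 33.1, 22.8 and 30.2 CPM in young and 6.0, 16.1, 20.9 and 16.8 CPM in old mice. The ages overlapped, and old replicate 1 stood far below the rest. On average it was lower in old mice, with a log2 fold change of -0.75 (SE 0.25, edgeR adjusted p = 0.073), which became -0.47 (adjusted p = 0.096) without old replicate 1 and -0.97 (adjusted p = 0.033) without old replicate 4. The 9 brain stem and spinal cord markers (most of them Hox genes) were lowest in the same mouse, at a mean log2 CPM of -2.71, beside 0.40 to 1.49 in young and -0.49 to 0.94 in the other old mice. All 9 had a log2 fold change below 0 (median -0.89, edgeR adjusted p from 0.18 to 0.40), their summed level was 15.6 to 32.0 CPM in young and 0.5 to 21.3 CPM in old mice, and Hoxa2, Hoxa3, Hoxa4, Hoxb3 and Hoxb5 were at 0 in at least 1 library. With the mean of these markers as a covariate, the log2 fold change of Glra1 was -0.21 (edgeR adjusted p = 0.34), while Glrb (-0.16, adjusted p = 0.036) and Glra2 (-0.41, adjusted p = 0.046) remained past the threshold. The call of Glra2 was lost with the mean of the cerebellar markers (-0.34, adjusted p = 0.077) or of the olfactory bulb markers (-0.33, adjusted p = 0.0504) as the covariate.

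Glra3 and Glra4 had log2 fold changes of -0.07 (SE 0.087) and -0.02 (SE 0.31). Glra1 made up 59.7% ± 5.57 (SD, n = 5) of the alpha transcripts by TPM in young and 50.0% ± 13.0 (SD, n = 4) in old mice, with 31.1% in old replicate 1. The difference of -9.66 percentage points became -3.35 without that mouse. Glra3 made up 11.3% ± 1.37 and 15.9% ± 2.44, and here each old mouse was above each young mouse, the lowest old value being 13.3% and the highest young value 13.0%.

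Promoters are shown for the lower members with the smallest adjusted p that had an entry in the RefSeq promoter table (GRCm38.p6), and for Gria2, the gene next to Glrb on chromosome 3, which lies on the same strand and did not pass the test. Each run holds the 250 bases before the RefSeq start, 5′ to 3′ on the gene's strand, all of these genes lying on the minus strand. Capitals mark 3 core promoter motifs on either strand, the GC box (GGGCGG), the TATA box (TATAAA) and the CCAAT box (CCAAT). Gria4 lies at chr9:4796235-4796484, Glrb at chr3:80913661-80913910, Grin2d at chr7:45866682-45866931, Glra2 at chrX:165327394-165327643 and Gria2 at chr3:80802836-80803085. The Grin2d window lies inside the gene as placed by GENCODE (chr7:45831883-45878378), while the other windows end at the GENCODE start of their gene.
Gria4: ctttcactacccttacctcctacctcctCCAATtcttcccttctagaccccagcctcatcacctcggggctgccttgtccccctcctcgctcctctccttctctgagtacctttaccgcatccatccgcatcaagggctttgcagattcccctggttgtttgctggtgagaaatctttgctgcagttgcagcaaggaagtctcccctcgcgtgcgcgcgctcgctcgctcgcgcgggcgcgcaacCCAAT
Glrb: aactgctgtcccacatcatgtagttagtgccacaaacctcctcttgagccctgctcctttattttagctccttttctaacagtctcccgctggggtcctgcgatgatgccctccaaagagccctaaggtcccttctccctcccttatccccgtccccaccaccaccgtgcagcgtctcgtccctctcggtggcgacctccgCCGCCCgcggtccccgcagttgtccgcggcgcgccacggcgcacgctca
Grin2d: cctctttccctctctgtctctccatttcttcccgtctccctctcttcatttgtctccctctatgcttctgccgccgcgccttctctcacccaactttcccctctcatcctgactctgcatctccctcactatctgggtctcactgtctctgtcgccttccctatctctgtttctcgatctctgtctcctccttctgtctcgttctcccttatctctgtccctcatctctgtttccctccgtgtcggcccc
Glra2: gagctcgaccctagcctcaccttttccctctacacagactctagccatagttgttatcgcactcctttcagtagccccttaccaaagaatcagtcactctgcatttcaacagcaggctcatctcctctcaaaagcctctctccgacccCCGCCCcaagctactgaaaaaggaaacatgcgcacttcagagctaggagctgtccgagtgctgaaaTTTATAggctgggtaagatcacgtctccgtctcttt
Gria2: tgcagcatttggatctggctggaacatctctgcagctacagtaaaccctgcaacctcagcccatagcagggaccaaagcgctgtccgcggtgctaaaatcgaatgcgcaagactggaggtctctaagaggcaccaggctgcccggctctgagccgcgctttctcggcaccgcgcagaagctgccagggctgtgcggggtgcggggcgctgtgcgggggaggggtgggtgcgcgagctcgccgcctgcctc
In these windows Gria4 held 2 CCAAT boxes, Glrb a GC box, Glra2 a GC box and a TATA box, and Grin2d and Gria2 none of the 3 motifs. Over the whole table window (250 bases before to 50 after the start), the GC box was found in 21 of the 36 subunit genes with an entry (58.3%), beside 38.2% of 27025 genes. The CCAAT box was found in 44.4% and 41.1%, and the TATA box in 11.1% and 15.7%. Subunit promoters held a median of 13 CpG dinucleotides, beside 8 over all genes. Of the lower members, 6 had an entry, 4 of which held a GC box, 1 a TATA box and 1 a CCAAT box. No motif searched contains another, and a match describes the window and is no evidence of binding.

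NMDA receptors are coincidence detectors that need glutamate, a co-agonist and depolarisation, and 2 of their 7 genes fell. Grin3a encodes GluN3A, which lowers the calcium permeability of the channel and is most abundant in early life. It had 52.4, 59.3, 56.5, 51.7 and 54.7 CPM in young and 41.2, 45.7, 44.0 and 48.4 CPM in old mice. No old mouse reached the lowest young one, and the log2 fold change was -0.29 (SE 0.055, edgeR adjusted p = 0.0046), a fall of 18.4%. Grin2d encodes GluN2D, a slow subunit found in interneurons, thalamus and brain stem. It had 32.6, 40.5, 41.2, 37.0 and 38.2 CPM in young and 31.0, 30.5, 31.0 and 31.1 CPM in old mice. The ages were again apart, though young replicate 1 lay only just above the old mice. Grin2d had a log2 fold change of -0.29 (SE 0.063, edgeR adjusted p = 0.0098), a fall of 18.2%. With the brain stem marker mean as a covariate the call of Grin2d was lost (adjusted p = 0.062), and that of Grin3a was kept (adjusted p = 0.041). Grin2d overlaps Kdelr1 on the other strand, and without stranded counting their reads cannot be told apart. Grm4 and Grm5 likewise overlap an annotated gene on the other strand.

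The obligatory subunit GluN1, encoded by Grin1, gave 393.4 to 432.8 CPM in young and 379.4 to 428.6 CPM in old mice (log2 fold change -0.02, SE 0.043, edgeR adjusted p = 0.86), and its sign turned without young replicate 1 and without old replicate 4. The main GluN2 genes had lower mean levels that did not pass the test, with log2 fold changes of -0.09 for Grin2a (SE 0.055), -0.16 for Grin2b (SE 0.079) and -0.09 for Grin2c (SE 0.10). By TPM, Grin1 made up 37.0% ± 0.84 (SD, n = 5) of the NMDA receptor transcripts in young and 39.1% ± 1.06 (SD, n = 4) in old mice. The lowest old share was 38.0% and the highest young share 37.7%, so the ages did not overlap. Among the GluN2 transcripts, Grin2c made up 41.4% ± 3.36 and 42.3% ± 5.83, Grin2b 32.8% ± 2.72 and 32.3% ± 4.10, and Grin2a 17.3% ± 0.88 and 17.8% ± 1.58. Each of these differences was smaller than the SD between mice of 1 age. The order of the genes depends on the unit. By raw counts, which are not per length, Grin2b made up 58.6% and Grin2c 15.1% in young mice.

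Both GABA-B receptor genes fell. The receptor is a pair of GABA-B1, which binds GABA, and GABA-B2, which couples to the G protein. Gabbr1 was the most abundant subunit transcript of all, per length and in CPM, with 844.4, 859.4, 847.2, 854.1 and 835.6 CPM in young and 794.8, 763.7, 759.2 and 767.1 CPM in old mice. The spread within each age was narrow and the ages did not overlap. Gabbr1 had a log2 fold change of -0.14 (SE 0.032, edgeR adjusted p = 0.013), a fall of 9.07%. Gabbr2 had 344.9, 315.8, 328.5, 357.8 and 311.8 CPM in young and 313.6, 298.5, 290.0 and 265.8 CPM in old mice. Here old replicate 1 lay above the lowest young mouse, with a log2 fold change of -0.18 (SE 0.052, edgeR adjusted p = 0.036).

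Gabbr2 lost its call without young replicate 1 (adjusted p = 0.085), 3 (0.056) or 4 (0.069) and without old replicate 3 (0.055), 4 (0.070) or 5 (0.11), while Gabbr1 kept its call when any single library was left out, with an edgeR adjusted p of at most 0.039. With the mean of the cerebellar markers as a covariate, neither passed the threshold (Gabbr1 0.062, Gabbr2 0.18). On the scale of the pan-neuronal markers the log2 fold change of Gabbr1 turned to 0.00.

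GABA-A receptors carry most fast inhibition in the forebrain. Of their 16 tested genes 1 fell, and those described next did not pass the test. Gabrb2 (beta2) had a log2 fold change of -0.13 (SE 0.047, edgeR adjusted p = 0.10), and Gabra6 (alpha6) one of -0.33 (SE 0.17, adjusted p = 0.25). The subunits of the clusters on chromosomes 5 and 7 lay between -0.17 (Gabrg3) and 0.05 (Gabra5), and none of them passed the test, with Gabrb1 at an unadjusted p under 0.05 and none called by DESeq2. On the X chromosome, Gabrq (theta) had a log2 fold change of -0.40 (SE 0.14, adjusted p = 0.081), and Gabre (epsilon), at 2.0 to 4.4 CPM, one of -0.47 (SE 0.21, adjusted p = 0.18). Gabrq passed without young replicate 1 (adjusted p = 0.034).

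Gabrr2 (rho2) gave the highest fold change of any subunit gene, from 1.0, 1.0, 1.2, 1.0 and 1.4 CPM in young to 2.0, 1.5, 1.7 and 1.4 CPM in old mice. These values rest on 18 to 38 reads per library, and the ages overlapped slightly. Gabrr2 had a log2 fold change of 0.56 (SE 0.20, edgeR adjusted p = 0.084). The other rho genes Gabrr1 (3 to 9 reads) and Gabrr3 (1 to 2 reads), the pi subunit gene Gabrp (0 to 1 read) and Grm6 (0 to 2 reads), which serves retinal ON bipolar cells, were too rare to test at this depth.

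**Figure D2:**
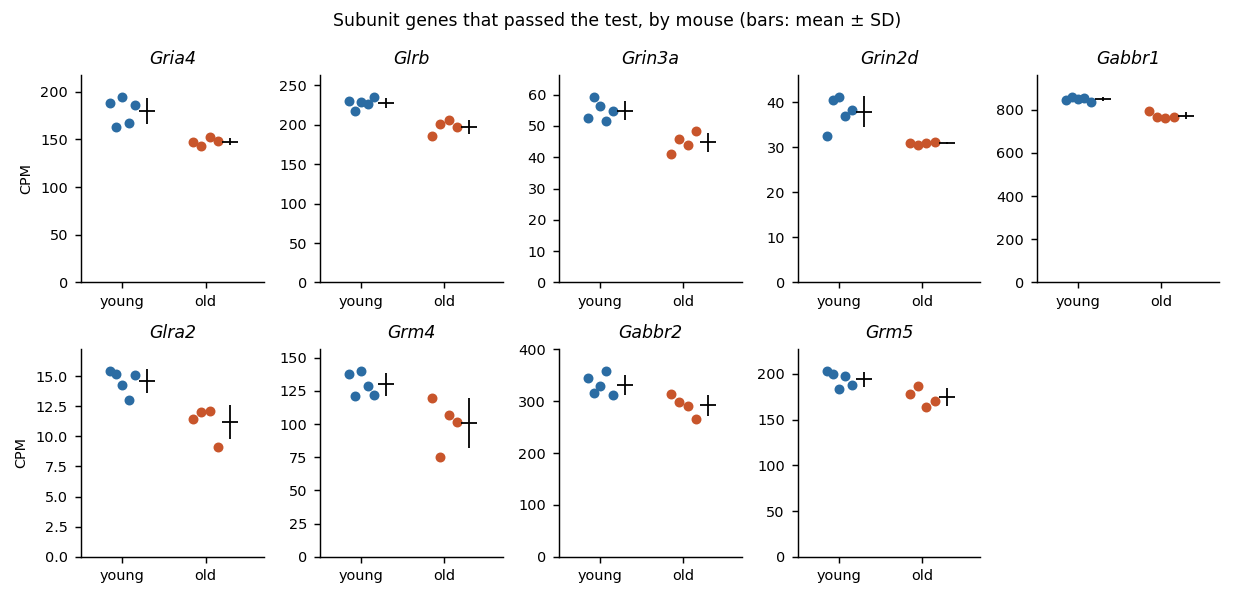
Level (CPM) in each of the 5 young and 4 old mice of 9 of the 10 subunit genes that were lower in old brain, with axes from 0. Crosses give the mean and SD. In 7 genes the old mice lie below all young mice, and in Gabbr2 and Grm5 the ages overlap. The test picked these genes from the same values, so their separation adds no support.

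Metabotropic glutamate receptors tune release and excitability, and 2 of their 7 tested genes fell. Grm4 encodes mGlu4, a presynaptic receptor abundant on the parallel fibres of cerebellar granule cells. It had 137.4, 121.2, 139.8, 128.9 and 121.8 CPM in young and 119.6, 75.0, 106.6 and 101.7 CPM in old mice. Old replicate 3 was far below the others, and old replicate 1 lay just under the lowest young mouse. Grm4 had a log2 fold change of -0.36 (SE 0.097, edgeR adjusted p = 0.028), a fall of 22.1%. The call of Grm4 was lost without young replicate 1 (adjusted p = 0.069) or 3 (0.062) and without old replicate 5 (0.059).

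Grm5, encoding the group I receptor mGlu5, had 203.0, 199.9, 183.5, 197.1 and 188.1 CPM in young and 177.6, 187.2, 163.6 and 170.4 CPM in old mice. Old replicate 3 lay within the young range. The log2 fold change was -0.15 (SE 0.045, edgeR adjusted p = 0.039), the highest adjusted p of the 10 calls. It was lost without young replicate 1 (adjusted p = 0.099), 2 (0.080), 4 (0.065) or 5 (0.056) and without old replicate 1 (0.065), 4 (0.11) or 5 (0.10).

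Grm3, a group II receptor also made by astrocytes, had a log2 fold change of -0.20 (SE 0.062, edgeR adjusted p = 0.060) and passed without old replicate 5 (adjusted p = 0.023). The other group II gene, Grm2, had one of 0.10 (SE 0.12), and the group III genes Grm7 and Grm8 had -0.13 (SE 0.053) and -0.14 (SE 0.080). None of these passed the edgeR test. DESeq2's Wald test called Grm3 (adjusted p = 0.046), as did edgeR without a filter on low counts (0.021), with the cerebellar covariate (0.016) and with the olfactory bulb covariate (0.032). By TPM, Grm4 made up 25.0% ± 1.41 (SD, n = 5) of the metabotropic transcripts in young and 22.0% ± 3.82 (SD, n = 4) in old mice, with 16.7% in old replicate 3.

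Of the 5 kainate receptor genes, 0 passed the edgeR test in either direction, with 1 at an unadjusted p under 0.05 and 0 called by DESeq2. Grik5 (GluK5), at 50.9% ± 0.75 (SD, n = 5) of the kainate transcripts by TPM in young and 50.4% ± 1.53 (SD, n = 4) in old mice, had a log2 fold change of -0.02 (SE 0.056, adjusted p = 0.85), and its sign turned without young replicate 2 and without old replicate 4. Grik1 (GluK1) had the largest change of the class, -0.18 (SE 0.072, adjusted p = 0.12). Grik3 (GluK3) had a positive one of 0.14 (SE 0.075, adjusted p = 0.27), and it passed as higher on the scale of the pan-neuronal markers.

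Of the 2 delta receptor genes 0 passed the edgeR test, with 1 at an unadjusted p under 0.05 and 0 called by DESeq2. Grid1 (GluD1), with the wider distribution, had 61.2 to 67.7 CPM in young and 57.6 to 64.3 CPM in old mice (log2 fold change -0.08, SE 0.043, edgeR adjusted p = 0.28).

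Cerebellar markers varied between libraries, and Gabra6 was lowest in those where they were lowest. The 9 cerebellar neuron markers all had a log2 fold change below 0 (median -0.27), 1 passed the test (Car8, a Purkinje cell gene, -0.74), and their summed level was 766 to 1068 CPM in young and 527 to 896 CPM in old mice. Their mean log2 CPM was lowest in old replicate 3 (5.27), old replicate 5 (5.43) and young replicate 2 (5.71), beside 5.96 to 6.21 in the other libraries. Gabra6, a granule cell subunit, had 92.3, 59.2, 85.3, 79.6 and 82.6 CPM in young and 79.3, 40.7, 80.7 and 52.1 CPM in old mice. Its 3 lowest libraries were the same 3. Grm4 was lowest in old replicates 3 and 5 and, among young mice, in young replicate 2. In old replicates 1 and 4, with marker means of 5.96 and 5.98, Grm4 had 119.6 and 106.6 CPM, beside 121.2 CPM in young replicate 2. The part of the cerebellar markers in the fall of Grm4 was not tested.

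With the mean of the cerebellar markers as a covariate, the log2 fold change of Grm4 went to -0.17 (edgeR adjusted p = 0.22). That of Gria4 went to -0.20 (adjusted p = 0.041), that of Grin3a to -0.37 (adjusted p = 0.0025), and that of Glrb to -0.19 (adjusted p = 0.029). Gria4, Glrb and Grin3a kept their call with the cerebellar, the olfactory bulb and the brain stem marker means as covariates (the last 2 added after seeing the data) and when any single library was left out. They lost it by limma on the TPM values and on the scale of the pan-neuronal markers.

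**Figure D3:**
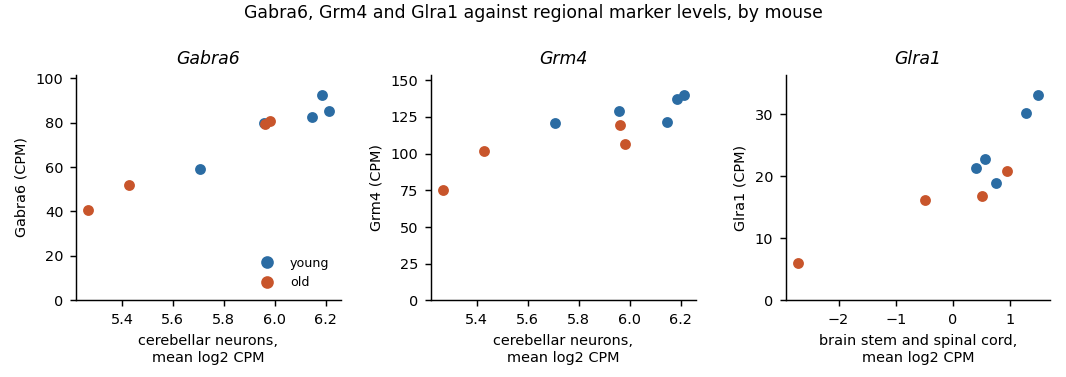
Level (CPM) of Gabra6 and Grm4 against the mean log2 CPM of 9 cerebellar markers, and of Glra1 against that of 9 brain stem and spinal cord markers, with 1 point per mouse. The 3 libraries with the lowest cerebellar marker mean were the 3 lowest for Gabra6, and old replicate 1 was lowest for Glra1 and for the brain stem markers.

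**Figure D4:**
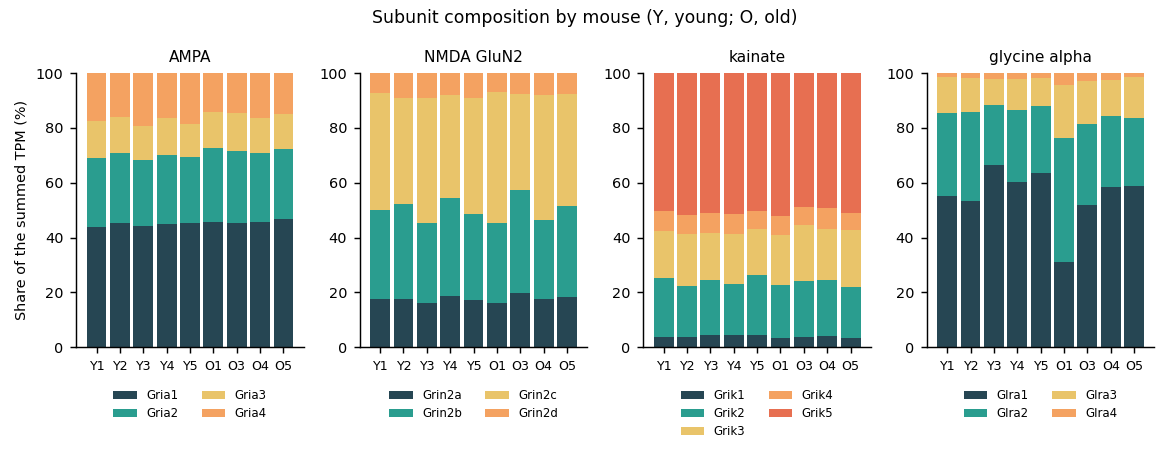
Share of the summed TPM that each subunit gene takes within the AMPA, GluN2, kainate and glycine alpha classes, as stacked bars that add up to 100%, for each young (Y) and old (O) mouse. Gria4 takes 17.4% of the AMPA transcripts in young and 14.9% in old mice, and Glra1 takes 31.1% of the glycine alpha transcripts in old replicate 1.

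The proteins that assemble, anchor and feed these receptors were described from 6 lists of 92 symbols, of which 91 matched a tested gene. Together 2 were higher and 10 were lower, with a median log2 fold change of -0.07. Of all tested genes 11.0% were called in either direction, and these 12 calls among 91 lie near that share. By direction, 4.83% of all tested genes were lower and 6.2% were higher, so the list calls leaned more to lower. No list was tested as a group. The 12 calls became 25 on the scale of the pan-neuronal markers, where 5197 of all genes were called. They became 5 by limma on TPM, where 594 or 600 of all genes were called. Of 17 auxiliary subunits of AMPA and kainate receptors, which control trafficking and gating, 3 fell, with a list median of -0.11. Neto2, a partner of kainate receptors, went from 77.0 to 85.8 CPM in young to 61.4 to 65.7 CPM in old mice (log2 fold change -0.34, SE 0.041, edgeR adjusted p = 0.00022). Cacng4, a TARP that carries AMPA receptors, went from 53.4 to 57.5 CPM to 44.6 to 47.5 CPM (-0.28, SE 0.042, adjusted p = 0.0010). Frrs1l, which acts in AMPA receptor assembly, changed by -0.16 (SE 0.041, adjusted p = 0.020). In all 3 the ages did not overlap, which adds no support, since the test picked them from the same values.

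Of 18 auxiliary and clustering genes of inhibitory receptors, 1 rose and 1 fell, a share that is also near that of all genes. Plcl1, whose product binds GABA-A receptors and GABARAP, rose from 45.9 to 50.8 CPM in young to 57.0 to 63.3 CPM in old mice (log2 fold change 0.31, SE 0.046, edgeR adjusted p = 0.0010). Lhfpl4, which brings GABA-A receptors to the synapse, fell with a log2 fold change of -0.11 (SE 0.033, adjusted p = 0.044). The list median was -0.04. Of 9 secreted organisers of synapses, 2 fell, Cbln2 (-0.25, SE 0.064, adjusted p = 0.022) and C1ql1 (-0.43, SE 0.12, adjusted p = 0.032), whose product is made by climbing fibre neurons. Of 20 excitatory scaffold genes 1 fell, Dlg4, which encodes PSD-95 (-0.17, SE 0.042, adjusted p = 0.020), with a list median of -0.01.

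Among genes of transmitter supply 1 rose and 3 fell, with list medians of -0.03 for glutamate and -0.09 for GABA and glycine. Slc17a6 (VGLUT2), the vesicular glutamate transporter of thalamus and brain stem, went from 98.0 to 115.6 CPM in young to 70.0 to 87.8 CPM in old mice (log2 fold change -0.40, SE 0.070, edgeR adjusted p = 0.0030). Glul, the astrocytic glutamine synthetase, rose from 1392 to 1494 CPM to 1659 to 1808 CPM (0.26, SE 0.037, adjusted p = 0.00069). These were the 2 calls among 13 genes of glutamate synthesis and transport. Of 14 genes of GABA and glycine synthesis and transport, 2 fell, the glycine transporter gene Slc6a9 (-0.30, SE 0.058, adjusted p = 0.0060) and the GABA transaminase gene Abat (-0.14, SE 0.040, adjusted p = 0.042).

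**Figure D5:**
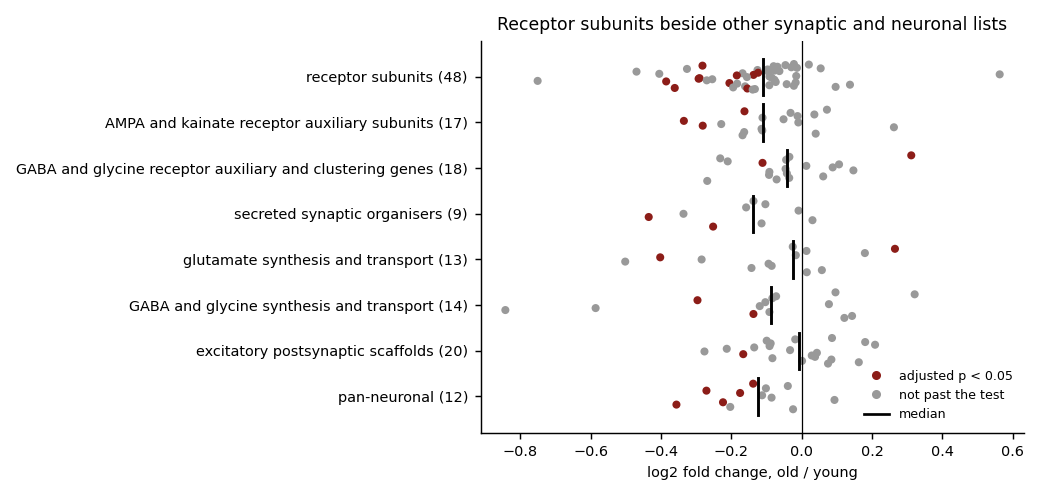
Log2 fold change (old over young) of the 48 receptor subunit genes beside 6 lists of synaptic genes and the 12 pan-neuronal markers, with 1 point per gene, dark points past the test and a bar at the median of each list. The receptor genes have a median of -0.11, the neuronal markers one of -0.13. Scaling to those markers in place of TMM moves the receptor median to 0.03.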

How the data were processed

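PolyA-selected RNA of whole brain was measured in 5 young and 4 old mice. The authors trimmed reads with Trimmomatic, aligned them with STAR to Ensembl GRCm38 and assigned unique alignments to exons by featureCounts. What they deposited as counts are raw whole numbers for each gene. The authors also deposited normalized counts, a signal made by dividing each library's counts by 1 size factor, for 17994 genes, and TPM values, whose gene lengths are not given in the sources used here. Strand-specific counting is stated only for strand-specific libraries. In each table, 1 more column belonged to no sample listed here and was not used.

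Counts were filtered with filterByExpr (minimum count 10, minimum total 15), scaled by TMM and compared with edgeR's quasi-likelihood test, two-sided, with Benjamini-Hochberg adjustment over 18492 genes. CPM values are TMM-scaled, with a prior count of 2 on the log2 scale. Standard errors were derived from the F statistic and the fold change. Shares used TPM, since levels of different genes compare only per length, and were not tested. Fits on TPM used limma on log2(TPM + 1) or log2(TPM + 0.1), a scale that understates the change of low genes. Software: edgeR 4.0.16, limma 3.58.1 and DESeq2 1.42.0 ran under R 4.3.3. Symbols and positions came from GENCODE M21, which names 48970 of the gene IDs, and promoters from RefSeq (GRCm38.p6).

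Named genes are the subunit genes past the test, the most abundant per length and the most changed in each class, the 5 with the lowest adjusted p over 0.05, the untested ones and the called genes of the 6 synaptic lists. A few genes that it covers are left out of the text and the plots by gene. Further subunit genes are named with their values known. The members and the lists, with 16 marker lists, were chosen with earlier results of these data known. Libraries of 1 age differed by more than sampling noise (chi-square per degree of freedom at least 4.09), so each counted as a replicate. Alternatives were other size factors, filters, tests and units, covariates, a replicate block and each library left out.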

Additional observations from a re-analysis of the deposited data

Results flagged for a closer look

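Among 80 combinations of a named gene or marker list with an age, 3 had a library that stood apart by Dixon's test at the 95% level, where chance flags about 1 in 20, or 4 of them. Grin2d in old replicate 3 had a log2 CPM of 4.93, beside 4.96 in each of the other old mice, a gap that counts only because those lie so close together. The olfactory bulb markers had a mean log2 CPM of 3.21 in young replicate 2, beside 0.76 to 1.28 in the other young mice. The microglia markers had a mean log2 CPM of 4.87 in young replicate 4, beside 4.45 to 4.56 in the other young mice.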

How the results depend on the processing

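By limma on log2(TPM + 1) or log2(TPM + 0.1), 3 subunit genes, 594 or 600 genes in all and 5 genes of the synaptic lists were called, the subunit median was -0.25 or -0.28, and in TPM 5 subunit genes did not overlap. Scaled to the pan-neuronal markers, added after seeing the data, 3 subunit genes, 5197 genes in all (96.0% of them higher, beside 56.2% in the fit reported) and 25 synaptic genes were called, the median was 0.027, and the log2 fold change turned to 0.0011 for Gabbr1, 0.060 for Grid1 and 0.12 for Gria1, Grik5 and Grin1. Without a filter on low counts 19 synaptic genes were called, beside 12. All genes called were 1347 with the cerebellar covariate and 1219 with the brain stem covariate. The brain stem and olfactory bulb covariates were, like the pan-neuronal scaling, added after seeing the data. At an adjusted p under 0.01, 4 subunit genes and 780 genes were called, and with the fold threshold 0 and 495. Leaving out 1 library gave 7 to 11 called subunit genes and 1454 to 1942 called genes. It gave 8 to 13 subunit genes without overlap (13 without old replicate 3), where fewer mice make separation easier in any gene. The difference in the Grin2a share of GluN2 transcripts ran from -0.13 (without old replicate 3) to 1.13 percentage points. The log2 fold changes of Gria1 (-0.039 to 0.0062), Grik5 (-0.055 to 0.028) and Grin1 (-0.035 to 0.019) turned sign without old replicate 4, that of Grik5 (0.017) also without young replicate 2 and with the replicate block (0.014), and that of Grin1 (0.0035) without young replicate 1. The causes were not tested. Of the other values for named genes, 339 kept direction and side of the threshold, 51 lost the call and 13 gained it. The replicate numbers do not pair the mice (correlation of same-numbered deviations -0.12 to 0.17, 1 of 4 old mice being closest to its own number), and with the replicate block 8 subunit genes and 1671 genes were called. At this depth genes with a handful of reads could not be tested.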

Other observations

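Markers of single brain regions and cell types beside the receptor genes gave further values. Of 7 microglia markers 2 were higher in old brain by edgeR (among them Tmem119, log2 fold change 0.53), as were 3 of 7 oligodendrocyte markers (Mobp 0.33, Mbp 0.26 and Cldn11 0.21), while Mog was lower (-0.22). Of 6 markers of oligodendrocyte precursors 1 was lower, Gpr17, at 35.6 to 41.9 CPM in young and 20.5 to 24.2 CPM in old mice (-0.83). The 4 blood genes (Hbb-bs, Hba-a1, Hba-a2 and Alas2) were all higher, with log2 fold changes of 1.11 to 1.35 and a summed level of 79.6 to 107 CPM in young and 119 to 373 CPM in old mice.

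The lists of neuron markers gave medians of either sign. The median log2 fold change was 0.03 for 7 markers of cortical and hippocampal excitatory neurons and -0.02 for 8 of striatal projection neurons. It was 0.16 for 7 of GABAergic interneurons, of which Vip was higher (0.41), and -0.01 for 6 thalamic markers, of which Ramp3 (-0.38) and Ntng1 (-0.20) were lower. The median was -0.11 for 7 hypothalamic markers, of which Avp was higher (0.92), and -0.19 for 6 of choroid plexus and ependyma, of which Kcne2 was lower (-0.74). Astrocyte markers had a median of 0.02 over 8 genes with none past the test, the lowest adjusted p being 0.059, and endothelial and mural markers one of -0.01 over 7, of which Flt1 (0.25) and Pecam1 (0.38) were higher. The 6 olfactory bulb markers had a median of 1.52 with none past the test, and their mean log2 CPM ran from 0.76 to 3.21 in young and from 0.94 to 4.44 in old mice.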
